A study of Homo sapiens with 12 samples.

Results

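The mRNAs of 10 inflammatory chemokines and cytokines were followed in A375 cells, an established human melanoma line. They were taken by name from the 26475 entries of the count table: CXCL1, CXCL2, CXCL3, CXCL8, CCL2, IL1A, IL1B, IL6, IL11 and LIF. The list was chosen with earlier results of these data known, so counts of its members beside shares of all genes are a description and no test. All 10 were present and all 10 were among the 15353 genes with enough counts to be tested. The cells were treated for 24 h with OF1 and XL413 together (1 µM each; OF1+XL413, the combination), with XL413 alone (1 µM), with OF1 alone (1 µM) or with DMSO, the vehicle, with 3 libraries per treatment. XL413 inhibits CDC7, the kinase that starts DNA replication by phosphorylating the MCM helicase, and OF1 inhibits the bromodomains of the BRPF proteins, scaffolds of histone acetyltransferase complexes. All groups are this single cell line, grown in DMEM with fetal bovine serum. The labels number the replicates without saying whether each came from its own culture, so the spread that the tests use may be technical.

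Chemokines are small secreted proteins that direct the migration of white blood cells. CXCL1, CXCL2, CXCL3 and CXCL8 attract neutrophils through the receptors CXCR1 and CXCR2, and CCL2 attracts monocytes through CCR2. IL1A and IL1B are the agonists of the interleukin-1 receptor, and IL6, IL11 and LIF signal through receptors that share the subunit gp130, encoded by IL6ST. In melanoma and many other cells transcription of most of these genes is driven by NF-kB, with AP-1 and C/EBP factors, and their mRNAs are short-lived because AU-rich elements mark them for decay. CXCL1 was first isolated from melanoma cells, as an activity that stimulates their growth.

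The 4 neutrophil chemokines lie in one cluster on chromosome 4 of GRCh38, with CXCL8 at 73740569 to 73743716, CXCL1 at 73869393 to 73871308, CXCL3 at 74036589 to 74038689 and CXCL2 at 74097040 to 74099195. CCL2 lies on chromosome 17 (34255285 to 34257203). IL1A (112773925 to 112784493) and IL1B (112829751 to 112836779) are neighbours on chromosome 2. IL6 is on chromosome 7 (22727200 to 22731998), IL11 on chromosome 19 (55364382 to 55370463) and LIF on chromosome 22 (30240453 to 30246759). The 250 bases before the annotated start (RefSeq, GRCh38.p14) are given for the cluster genes, because CXCL1 and CXCL8 rose with treatment and CXCL2 and CXCL3 did not pass, and for IL1A, which rose under every treatment. Capitals mark NF-kB letters (GGANTTTCC, either strand) and AP-1 letters (TGANTCA).
CXCL1 (chr4:73869143-73869392, plus strand): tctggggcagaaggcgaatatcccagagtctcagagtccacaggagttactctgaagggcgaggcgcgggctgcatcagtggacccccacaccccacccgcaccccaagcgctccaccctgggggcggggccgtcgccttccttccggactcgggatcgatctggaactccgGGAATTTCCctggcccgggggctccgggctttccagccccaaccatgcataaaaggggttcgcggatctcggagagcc
CXCL2 (chr4:74099196-74099445, minus strand): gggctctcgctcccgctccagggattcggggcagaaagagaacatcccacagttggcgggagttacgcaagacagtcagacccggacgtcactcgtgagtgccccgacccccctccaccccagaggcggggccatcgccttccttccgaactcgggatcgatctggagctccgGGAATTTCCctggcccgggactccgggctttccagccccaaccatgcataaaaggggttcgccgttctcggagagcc
CXCL3 (chr4:74038690-74038939, minus strand): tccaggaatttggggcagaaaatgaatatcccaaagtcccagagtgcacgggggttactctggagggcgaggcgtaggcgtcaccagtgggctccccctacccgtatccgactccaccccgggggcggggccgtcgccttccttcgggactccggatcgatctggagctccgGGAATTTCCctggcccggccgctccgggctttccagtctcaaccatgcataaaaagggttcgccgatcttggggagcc
CXCL8 (chr4:73740319-73740568, plus strand): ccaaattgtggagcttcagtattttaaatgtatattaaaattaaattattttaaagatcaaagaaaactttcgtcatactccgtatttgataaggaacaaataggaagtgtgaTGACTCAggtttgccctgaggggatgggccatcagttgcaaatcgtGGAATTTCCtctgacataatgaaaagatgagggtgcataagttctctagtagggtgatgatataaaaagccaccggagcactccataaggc
IL1A (chr2:112784494-112784743, minus strand): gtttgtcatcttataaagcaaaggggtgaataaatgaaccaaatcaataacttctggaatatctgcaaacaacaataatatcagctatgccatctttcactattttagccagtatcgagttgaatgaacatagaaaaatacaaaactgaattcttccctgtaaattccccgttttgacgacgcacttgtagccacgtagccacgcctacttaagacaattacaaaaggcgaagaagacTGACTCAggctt

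All 4 chemokine promoters held the same NF-kB match, GGAATTTCC, which began 78, 77, 78 and 91 bases before the start of CXCL1, CXCL2, CXCL3 and CXCL8. CXCL8 also held an AP-1 match, TGACTCA, 137 to 131 bases before its start, and IL1A held the same letters 12 to 6 bases before its start. Of the 8 members with a promoter entry (CCL2 and LIF had none), 5 held the NF-kB letters, the fifth being IL6 with GGATTTTCC, and 3 held the AP-1 letters, the third being IL11 with TGAGTCA. Among all 35116 promoter windows of this length the shares were 1.45% for the NF-kB letters and 6.57% for the AP-1 letters. The composite C/EBP-ATF letters TGATGNAA were in 3.14% of windows and in 0 of the 8. Other letters that C/EBP factors bind were not searched, so this count does not tell whether the promoters hold C/EBP sites. Other letters that NF-kB and AP-1 factors bind were not searched either, so promoters without a match may still hold such sites. The counts beside these shares are a description and no test. NF-kB and AP-1 letters did not overlap in any of the 5 sequences. CXCL1 shared 209 of 250 bases of its window with CXCL3 and 184 with CXCL2, against 119 with CXCL8. CXCL1, CXCL2 and CXCL3 thus resemble each other upstream as well as in their mRNA, and their NF-kB matches are not independent.

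Total counts per library ran from 30499559 to 36062138. The melanocyte lineage factor SOX10 stood at 318 to 386 CPM (counts scaled to a common library size with TMM, a correction for composition), while the pigment genes MLANA, PMEL, TYRP1 and DCT stayed at or below 1.04 CPM and TYR had no count. Markers of white blood cells, which make the same cytokines, were near absent: PTPRC (CD45) had 8 counts in all 12 libraries together, FCGR3A and S100A8 had 0, and the 13 markers summed to 6.14 to 7.74 CPM in OF1+XL413, 7.58 to 8.27 in XL413, 6 to 6.73 in OF1 and 6.22 to 7.04 in DMSO, most of it LYZ at 5.04 to 6.87 CPM. Skeletal muscle and fibroblast transcripts, in contrast, varied between libraries. The 15 muscle markers summed to 23.1 to 99.9 CPM in OF1+XL413, 131 to 287 in XL413, 128 to 297 in OF1 and 89 to 240 in DMSO. The 9 fibroblast markers summed to 62.8 to 164 CPM in OF1+XL413, 240 to 285 in XL413, 260 to 290 in OF1 and 219 to 276 in DMSO. The mRNAs of the targets did not pass the test in the single treatments: CDC7 was at 23.2 ± 1.14 CPM in XL413 and 23.3 ± 1.02 in DMSO (SD, n = 3 each), and BRPF1, BRD1 and BRPF3 had log2 changes of -0.02, -0.17 and -0.08 under OF1, none of which passed. DBF4, the activator of CDC7, rose in OF1+XL413 (log2 change 0.16 ± 0.04, SE, adjusted p = 0.0225), against log2 changes of 0.10 in XL413 and 0.12 in OF1 that did not pass.

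Set against transcript length, CXCL1 and CXCL8 were the most abundant of the 10 mRNAs. In DMSO, CXCL1 stood at 60.7 ± 0.865 CPM per kilobase (SD, n = 3; GENCODE 29 transcript lengths) and CXCL8 at 42.5 ± 1.19. LIF (14.5 ± 0.536), IL11 (14.2 ± 0.108) and CCL2 (13.1 ± 1.15) followed, and the libraries of each overlapped with those of its neighbour in this order. CXCL3 was at 5.69 ± 0.696, CXCL2 at 3.03 ± 0.154, IL1A at 2.6 ± 0.289 and IL1B at 1.96 ± 0.468, where CXCL2 overlapped with IL1A and IL1A with IL1B. IL6 was the lowest at 0.383 ± 0.0946 CPM per kilobase, on 16 to 32 counts per library over the 12 libraries, so that a change of IL6 is the least precise of the 10. CCL2 changed its place under XL413, where at 20 to 21.8 CPM per kilobase it lay above LIF (16.3 to 17.1). In OF1 it kept the fifth place that it had in DMSO, at 11.4 to 11.9 CPM per kilobase, below IL11 (13.8 to 15).

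**Figure D1:**
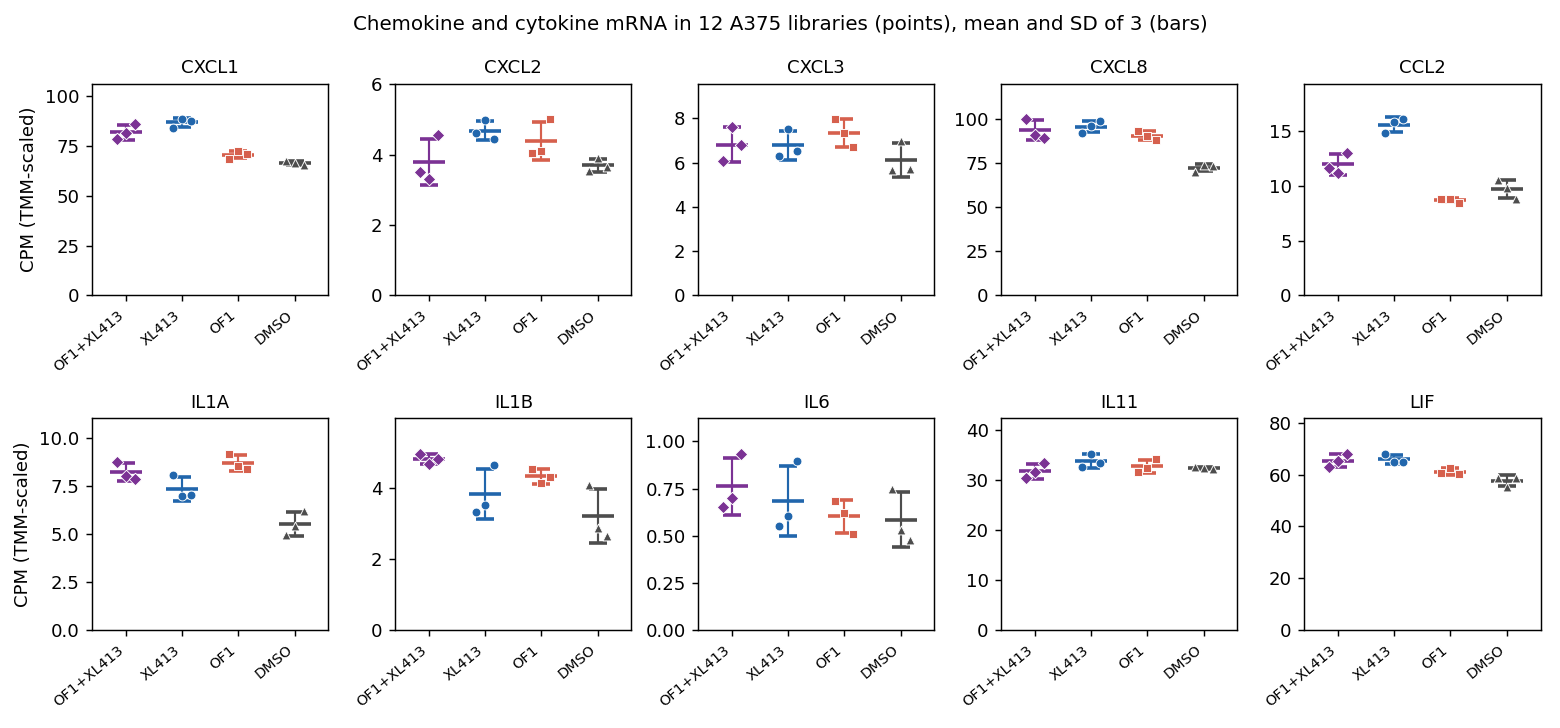
CPM of each gene (vertical axes, from 0) in the 12 libraries, by treatment; points are libraries, bars the mean and SD of 3. CXCL8 lies at 88.1 CPM or more in every treated library and at 74 CPM or less in every DMSO library, and CCL2 is highest in the XL413 libraries, at 14.8 CPM or more.

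XL413 against DMSO asks what the CDC7 inhibitor alone does to these mRNAs. All 10 had a log2 change above 0, as had 50% of all tested genes, with a median of 0.30 against 0.00 for all tested genes. CCL2, CXCL8, CXCL1, IL1A and LIF rose, 5 of 10, where 1.26% of all tested genes rose, and none of the 10 fell, where 1.54% did (2.8% in either direction). The rises were modest, from 1.14-fold for LIF to 1.6-fold for CCL2.

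CCL2 was at 14.8, 15.8 and 16.1 CPM in the XL413 libraries, against 10.6, 9.8 and 8.85 CPM in the DMSO libraries. Every XL413 library lay above every DMSO library, and the log2 change was 0.68 ± 0.08 (SE, adjusted p = 0.000361, edgeR's quasi-likelihood test). CXCL1 was at 84.3, 88.7 and 87.8 CPM in XL413, against 67.5, 66.7 and 65.6 CPM in DMSO, a log2 change of 0.38 ± 0.04. The groups were again separate, and libraries lay close together within each. CXCL8 was at 92.3, 95.8 and 98.7 CPM in XL413, against 70.1, 74 and 73.3 CPM in DMSO (0.40 ± 0.05, adjusted p = 0.000361). These 3 rises passed in each of the alternatives that could be run for them, 24 for CCL2 and CXCL8 and 23 for CXCL1.

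LIF, which keeps mouse embryonic stem cells undifferentiated, and IL1A, which is active without cleavage, rose less firmly. LIF was at 67.9, 64.9 and 64.9 CPM in XL413, against 58.8, 55.1 and 58.8 CPM in DMSO (0.19 ± 0.04, adjusted p = 0.0248). IL1A was at 8.07, 6.96 and 7.03 CPM in XL413, against 4.98, 5.4 and 6.19 CPM in DMSO (0.41 ± 0.10, adjusted p = 0.0352). In both genes the groups did not overlap. LIF lost its call without any one of the XL413 or DMSO libraries, at log2 changes of 0.16 to 0.21. IL1A lost it without XL413 replicate 1, 2 or 3 (0.34, 0.45 and 0.44), DMSO replicate 1 or 2 (0.34 and 0.39) or OF1 replicate 2 (0.41). With the muscle level as a covariate both lost their calls as well, at 0.19 for LIF and 0.37 for IL1A.

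The other 5 did not pass under XL413. CXCL2, at 4.45 to 4.98 CPM in XL413 against 3.54 to 3.9 CPM in DMSO, did not overlap between the groups, but its log2 change of 0.34 had an interval (95%) of 0.06 to 0.62 and an adjusted p of 0.177. CXCL3 had a log2 change of 0.15 (-0.10 to 0.39) and IL1B of 0.26 (-0.08 to 0.60). IL6, at 0.551 to 0.896 CPM in XL413 and 0.478 to 0.749 CPM in DMSO, had an interval of -0.38 to 0.84, so neither a fall to 0.769-fold nor a rise to 1.79-fold was outside it. IL11 was at 32.5 to 35.2 CPM in XL413 and 32.1 to 32.6 CPM in DMSO, and its interval of -0.05 to 0.16 bounds any rise at 1.12-fold. Among the 10, 6 had XL413 libraries wholly above the DMSO libraries, where 13% of all tested genes did, and none lay wholly below, where 14.8% did.

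OF1 against DMSO gives the effect of the BRPF inhibitor alone. IL1A and CXCL8 rose, 2 of 10, where 0.58% of all tested genes rose, and none of the 10 fell, where 0.567% did (1.15% in either direction). The median log2 change of the 10 was 0.17, against 0.00 for all tested genes. IL1A was at 9.19, 8.56 and 8.41 CPM in OF1, against 4.98, 5.4 and 6.19 CPM in DMSO, a 1.58-fold rise (log2 change 0.66 ± 0.10, adjusted p = 0.00291). The libraries of both groups were well apart.

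CXCL8 was at 93, 90.6 and 88.1 CPM in OF1, against 70.1, 74 and 73.3 CPM in DMSO (1.25-fold, log2 change 0.32 ± 0.05, adjusted p = 0.00247). Both rises passed in all 24 alternatives. CXCL1, the neighbour of CXCL8 with the same NF-kB letters, was at 68.8, 72.6 and 70.8 CPM in OF1, against 67.5, 66.7 and 65.6 CPM in DMSO. The OF1 libraries lay just above the DMSO libraries, and the log2 change of 0.09 ± 0.04 did not pass (adjusted p = 0.347). CCL2 was at 8.8, 8.82 and 8.47 CPM in OF1, all below the 10.6, 9.8 and 8.85 CPM of DMSO, with a log2 change of -0.16 ± 0.08 that did not pass (adjusted p = 0.38).

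IL1B, which unlike IL1A needs cleavage by caspase-1, was at 4.53, 4.13 and 4.32 CPM in OF1, against 4.08, 2.88 and 2.66 CPM in DMSO. DMSO replicate 1 stood above the other two DMSO libraries and just below the OF1 libraries, and the log2 change of 0.44 ± 0.16 did not pass (adjusted p = 0.219). CXCL3 (0.26, interval 0.02 to 0.51), CXCL2 (0.25, -0.04 to 0.53) and LIF (0.09, adjusted p = 0.366) did not pass either. IL11 (0.02, -0.09 to 0.12) and IL6 (0.04, -0.58 to 0.67) had the smallest changes. OF1 libraries lay wholly above DMSO for 6 of the 10 and wholly below for CCL2, where 10.2% and 11.8% of all tested genes did.

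**Figure D2:**
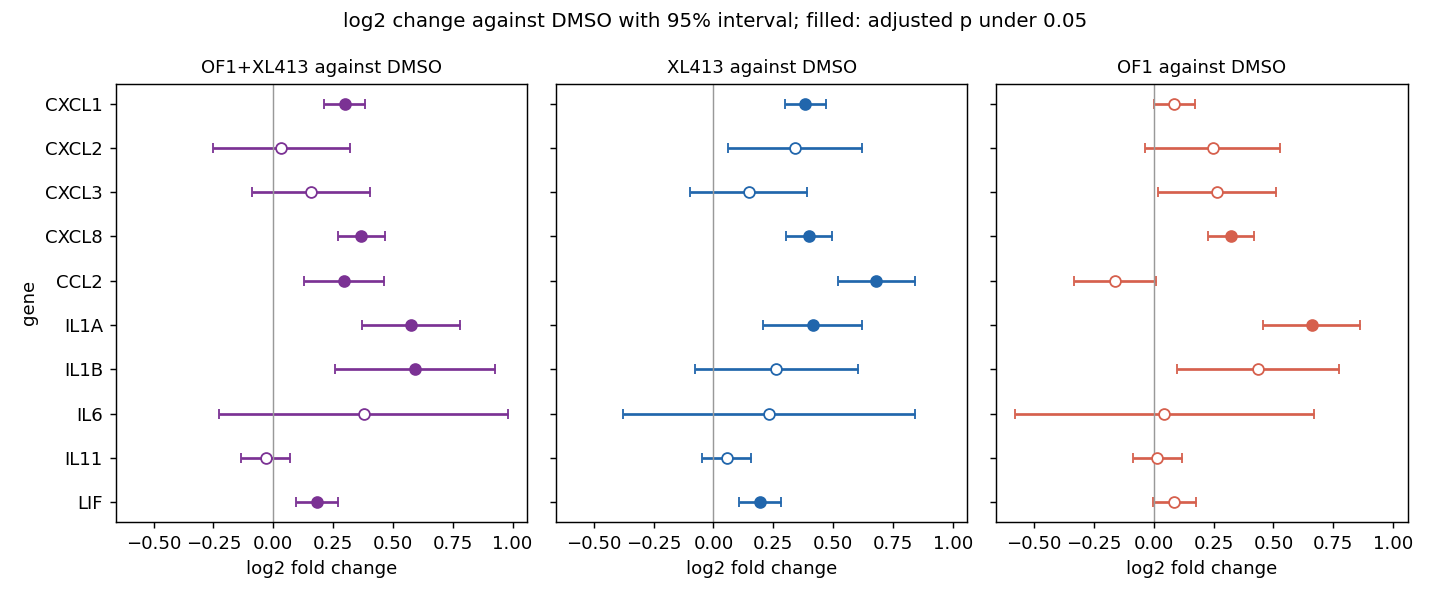
log2 fold change against DMSO (horizontal axis) of the 10 genes under OF1+XL413, XL413 and OF1, with 95% intervals; filled points passed at an adjusted p under 0.05. CCL2 is at 0.68 under XL413 and -0.16 under OF1, IL1A at 0.41 and 0.66, and IL11 lies close to 0 in all 3 panels.

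OF1+XL413 against DMSO shows both inhibitors together. CXCL8, CXCL1, IL1A, IL1B, CCL2 and LIF rose, 6 of 10, where 5.65% of all tested genes rose, and none fell, where 5.07% did (10.7% in either direction). The median log2 change was 0.30, against -0.00 for all tested genes. For the same 6 the OF1+XL413 libraries lay wholly above the DMSO libraries, as they did for 13.8% of all tested genes, and for none wholly below, where 13.8% were.

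CXCL8 was at 100.04, 91.2 and 89.5 CPM in OF1+XL413, against 70.1, 74 and 73.3 CPM in DMSO (1.29-fold, log2 change 0.37 ± 0.05, adjusted p = 0.000203). CXCL1 was at 78.5, 81.5 and 85.9 CPM in OF1+XL413, against 67.5, 66.7 and 65.6 CPM in DMSO (1.23-fold, 0.30 ± 0.04, adjusted p = 0.000368). IL1A was at 8.76, 8.02 and 7.88 CPM in OF1+XL413, against 4.98, 5.4 and 6.19 CPM in DMSO (1.49-fold, 0.57 ± 0.10, adjusted p = 0.0019). These 3 passed in all alternatives, among them those with the muscle level as a covariate and with replicate 1 alone for the combination.

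The interleukin-1 gene IL1B was at 4.97, 4.68 and 4.83 CPM in OF1+XL413, against 4.08, 2.88 and 2.66 CPM in DMSO (1.51-fold, 0.59 ± 0.16, adjusted p = 0.0264). CCL2 was at 11.6, 11.2 and 13 CPM in OF1+XL413, against 10.6, 9.8 and 8.85 CPM in DMSO (1.23-fold, 0.30 ± 0.08, adjusted p = 0.0256). LIF was at 63.1, 65.1 and 68.1 CPM in OF1+XL413, against 58.8, 55.1 and 58.8 CPM in DMSO (1.14-fold, 0.18 ± 0.04, adjusted p = 0.0122). In each of these 3 genes the lowest OF1+XL413 library lay above the highest DMSO library. All 3 lost their calls with the muscle level as a covariate, at log2 changes of 0.35, 0.20 and 0.18 for IL1B, CCL2 and LIF, and with replicate 1 alone for the combination, at 0.63, 0.26 and 0.13. IL1B (0.59) and CCL2 (0.30) also lost them in a fit of the OF1+XL413 and DMSO libraries only. Single libraries ended the calls as well: IL1B without OF1+XL413 replicate 2 or 3 (0.61 and 0.59) or DMSO replicate 2 or 3 (0.52 and 0.47), CCL2 without OF1+XL413 replicate 3 (0.23) or DMSO replicate 2 or 3 (0.30 and 0.23), and LIF without DMSO replicate 2 (0.15).

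The muscle and fibroblast sums above were lowest in OF1+XL413, and 5 of 15 muscle and 5 of 9 fibroblast markers fell against DMSO, none rising. Of all tested genes 5.07% fell and 5.65% rose in this comparison. Of the keratinocyte and epithelial markers 3 of 5 tested fell in OF1+XL413 and 2 of 5 in OF1, where 0.567% of all tested genes fell. Of the melanocyte markers MITF fell in OF1+XL413 (-0.33 ± 0.05), 1 of 8 tested. No endothelial or white blood cell marker passed in any treatment, of 6 and 3 tested, where 10.7%, 2.8% and 1.15% of all genes passed in OF1+XL413, XL413 and OF1. The muscle level used as covariate (mean log2 CPM) was 1.64, -0.42 and 0.32 in OF1+XL413, against 1.57, 2.18 and 3.17 in DMSO. Because it ran largely with the treatment, the covariate fit cannot separate muscle transcripts from treatment in the changes of IL1B, CCL2 and LIF. A call lost in that fit therefore does not show that muscle transcripts made the change. The part of the fibroblast transcripts was not tested. In bulk RNA, fewer cells with a transcript and less transcript per cell cannot be told apart. The remaining 4 members did not pass: CXCL3 (0.16, interval -0.09 to 0.40), CXCL2 (0.03, -0.25 to 0.32), IL6 (0.38, -0.23 to 0.98) and IL11 (-0.03, -0.13 to 0.07).

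The inhibitors were set against each other and against the combination to see which members tell them apart. CCL2 did so most. Its lowest XL413 library (14.8 CPM) lay above all OF1 libraries (8.47 to 8.82 CPM), and XL413 was 1.79-fold above OF1 (log2 difference 0.84 ± 0.08, adjusted p = 2.03e-05). CXCL1 also differed, at 84.3 to 88.7 CPM in XL413 and 68.8 to 72.6 CPM in OF1 (0.30 ± 0.04, adjusted p = 0.000439). They were the 2 of 10 members higher in XL413 than in OF1, where 3.1% of all tested genes were higher, and none was lower, where 3.35% were (6.45% in either direction). Both calls held in all alternatives run. The libraries did not overlap for CCL2, CXCL1 and LIF, higher in XL413, and for IL1A, lower in XL413, where 14.3% of all tested genes lay wholly higher and 14.3% wholly lower. CXCL8, in contrast, did not pass between XL413 and OF1, with an interval of -0.02 to 0.17. IL1A was lower in all XL413 libraries (6.96 to 8.07 CPM) than in all OF1 libraries (8.41 to 9.19 CPM), with a log2 difference of -0.25 ± 0.09 that did not pass (adjusted p = 0.131).

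Adding XL413 to OF1 (OF1+XL413 against OF1) raised CCL2 and CXCL1, 2 of 10, where 2.79% of all tested genes rose, and none fell, where 2.71% did (5.5% in either direction). The libraries of 4 members, with IL1B and LIF beside these, lay wholly above those of OF1 and none wholly below, against 11.2% and 11.3% of all tested genes. CCL2 was at 11.2 to 13 CPM in OF1+XL413 and 8.47 to 8.82 CPM in OF1 (1.37-fold, 0.46 ± 0.08, adjusted p = 0.00579). CXCL1 was at 78.5 to 85.9 CPM in OF1+XL413 and 68.8 to 72.6 CPM in OF1 (1.16-fold, 0.21 ± 0.04, adjusted p = 0.00905). Both lost their calls with the muscle level as a covariate (0.33 and 0.17 for CCL2 and CXCL1) and with replicate 1 alone for the combination (0.42 and 0.15). CXCL1 also lost its call in a fit of the libraries of these groups only, at 0.21 (adjusted p = 0.0719). The muscle levels of OF1+XL413 and OF1 did not overlap, so the covariate fit cannot separate muscle transcripts from treatment in this comparison.

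Adding OF1 to XL413 (OF1+XL413 against XL413) lowered CCL2, the only one of the 10 to fall, where 2.35% of all tested genes fell, and none rose, where 1.06% did (3.41% in either direction). CCL2 was also the one member wholly below the XL413 libraries, and IL1B the one wholly above, against 10.4% and 8.99% of all tested genes. CCL2 was at 11.6, 11.2 and 13 CPM in OF1+XL413, against 14.8, 15.8 and 16.1 CPM in XL413, with no overlap, and fell by 0.38 ± 0.07 on the log2 scale (adjusted p = 0.0117). The fall lost its call without OF1+XL413 replicate 2 (-0.34) or XL413 replicate 2 (-0.37), with the muscle level as a covariate (-0.51) and with replicate 1 alone for the combination (-0.42). The fibroblast markers, at 62.8 to 164 CPM in OF1+XL413 and 240 to 285 in XL413, were lower beside CCL2. So were the muscle markers, at 23.1 to 99.9 and 131 to 287. The muscle levels of these groups did not overlap, so the covariate fit cannot separate muscle transcripts from treatment here. The part of the fibroblast transcripts was not tested. CXCL8 (-0.03, interval -0.13 to 0.06) and LIF (-0.01, -0.10 to 0.08) had narrow intervals around 0.

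Non-additivity, the log2 change of the combination less the sum of the 2 single changes, was below 0 for 9 of the 10 members. Over all tested genes it was above 0 for 52.5%. Its median was -0.20 over the 10 and 0.01 over all tested genes, and these values share the DMSO libraries, so they do not vary independently. CXCL8 had the smallest p: the combination changed it by 0.37 and the single changes summed to 0.72, a difference of -0.35 ± 0.06 (interval -0.49 to -0.22, adjusted p = 0.0896). CXCL8 thus stood at 93.6 ± 5.67 CPM in OF1+XL413, 95.6 ± 3.18 in XL413, 90.6 ± 2.48 in OF1 and 72.5 ± 2.03 in DMSO (SD, n = 3 each), close to one level under all 3 treatments. IL1A changed by 0.57 in the combination against a sum of 1.07 (difference -0.50 ± 0.13, adjusted p = 0.164), and CXCL2 by 0.03 against 0.59 (difference -0.55 ± 0.19, adjusted p = 0.284).

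With edgeR's quasi-likelihood test 0 of the 10 and 0% of all tested genes passed for non-additivity. At an unadjusted p under 0.05 there were 4 of 10 members (CXCL1, CXCL2, CXCL8 and IL1A) and 1566 of 15353 genes. DESeq2 called 107 genes, CXCL8 among them (log2 difference -0.36, adjusted p = 0.00105), and limma-voom called 0. CXCL8 also passed without OF1+XL413 replicate 1 (-0.41, adjusted p = 0.00112), the highest of the treated CXCL8 libraries, and with no filter on low counts (-0.35, adjusted p = 0.0134). With the muscle level as a covariate the CXCL8 difference was -0.31, and with replicate 1 alone for the combination -0.26, neither passing.

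**Figure D3:**
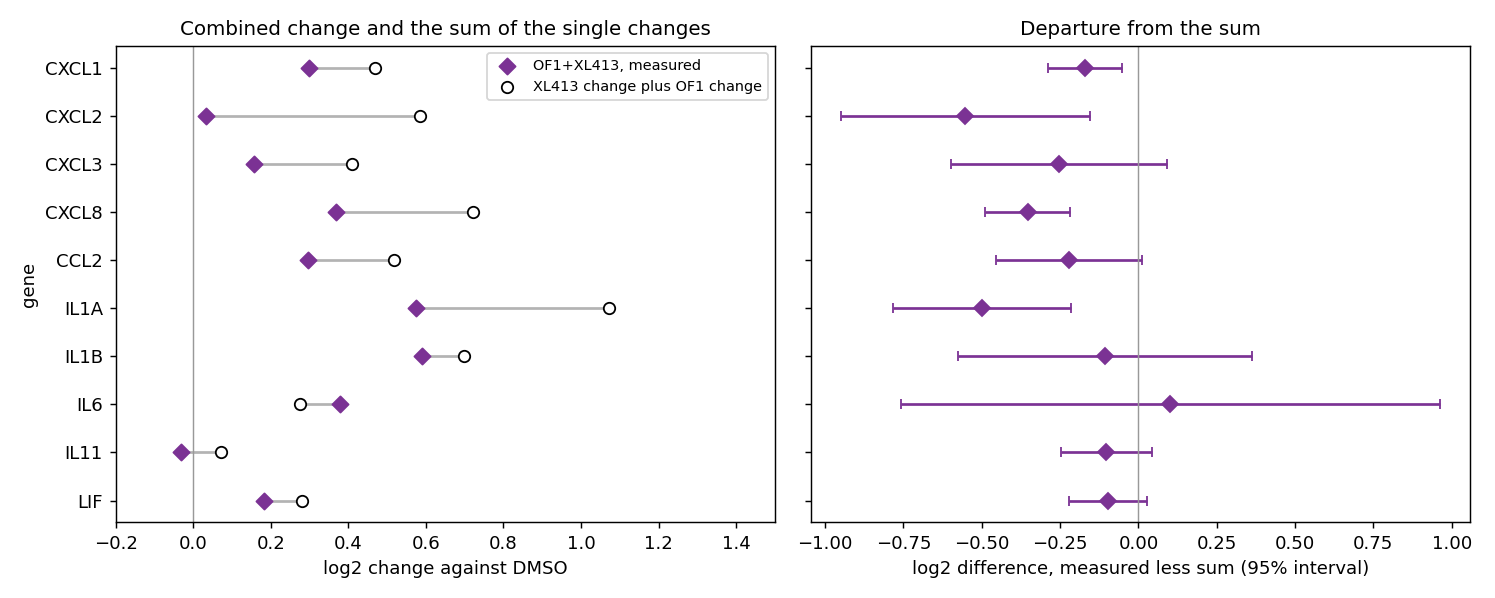
Left, log2 change against DMSO of the combination (diamonds) and the sum of the XL413 and OF1 changes (circles) for each gene; right, their difference with 95% intervals. CXCL8 lies at 0.37 in the combination against a sum of 0.72, and IL6 is the one gene whose combined change exceeds the sum.

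CXCL1, CXCL2 and CXCL3 are similar in sequence, so some reads can be split between them. Their mRNAs (GENCODE 29) were 90.5% identical over 1086 aligned bases for CXCL1 and CXCL2, 83.3% for CXCL2 and CXCL3 and 81.7% for CXCL1 and CXCL3, and 5.13% of the stretches of 50 bases in CXCL2 were also in CXCL1. Of the 36 deposited counts of these genes 8 were not whole, while those of the other 7 members all were. Summed to a single feature, the 3 genes had log2 changes of 0.28 ± 0.04 in OF1+XL413, 0.36 ± 0.04 in XL413 and 0.11 ± 0.04 in OF1, each against DMSO, of which the first and second passed (adjusted p = 0.000723 and 0.000361). CXCL1 holds most of this sum, so the values of CXCL2 (113 to 167 counts per library) and CXCL3 (189 to 271) remain the less certain ones.

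Other genes of the same pathways were counted from lists chosen with earlier results of these data known. Of 18 other chemokines 11 were tested and none passed against DMSO in any treatment. Over all tested genes 10.7%, 2.8% and 1.15% passed in OF1+XL413, XL413 and OF1. Of the 11 only CCL28 (5.94 CPM) and CXCL16 (3.78 CPM) had a median over the libraries above 1 CPM. Intervals of the scarce ones were wide, as for CCL26 under XL413 (1.04, interval 0.23 to 1.85), so changes in them are not excluded. The receptors of the members were scarce where they belong to white blood cells, with no count of CXCR1 or CCR2 and at most 0.125 CPM of CXCR2. The gp130 subunit IL6ST was at 109 to 137 CPM, and LIFR at 10.9 to 17 CPM. Of 12 receptor genes 7 were tested, and IL6R fell in OF1+XL413 (-0.27 ± 0.06, adjusted p = 0.0129) with no other call. Among 12 tested of 22 other interleukins and growth factors, IL24, a cytokine of the IL-10 family, rose in OF1+XL413 (0.28 ± 0.06) and in OF1 (0.33 ± 0.06). IL18, a member of the interleukin-1 family, fell in OF1+XL413 (-0.59 ± 0.12) and in OF1 (-0.61 ± 0.12).

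Some feedback genes of NF-kB rose under XL413. Of 17 subunits, kinases and feedback genes 4 rose in XL413 and none fell, where 1.26% of all tested genes rose and 1.54% fell, among them the subunit NFKB2 (0.20 ± 0.03), the inhibitor NFKBIA (0.27 ± 0.05) and the nuclear cofactor NFKBIZ (0.31 ± 0.06). In OF1 none of the 17 passed, and in OF1+XL413 NFKB2 rose (0.15 ± 0.03) and BCL3 fell (-0.37 ± 0.08). The median log2 change of the 17 was 0.03 in OF1+XL413, 0.04 in XL413 and 0.02 in OF1. For these and the next lists, 10.7%, 2.8% and 1.15% of all tested genes passed in OF1+XL413, XL413 and OF1. Of 12 AP-1 and C/EBP factors CEBPG rose in OF1+XL413 (0.28 ± 0.04) and OF1 (0.27 ± 0.04) and fell in XL413 (-0.18 ± 0.04), while FOSL2 (-0.40 ± 0.05) and JUN (-0.18 ± 0.05) fell in OF1+XL413. In interleukin-1 signalling the kinase IRAK1 fell in OF1+XL413 (-0.15 ± 0.03), XL413 (-0.13 ± 0.03) and OF1 (-0.16 ± 0.03), and S100A13, which serves the release of IL1A, rose in OF1+XL413 (0.31 ± 0.09), out of 12 tested.

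Some mRNAs of proteins that bind AU-rich mRNAs and control their decay fell in the combination. Of 8 such genes 5 fell in OF1+XL413, where 5.07% of all tested genes fell and 5.65% rose, among them KHSRP (-0.19 ± 0.03), ZFP36L1 (-0.21 ± 0.04) and ZFP36L2 (-0.31 ± 0.07), with a list median of -0.16, and none rose. In the same comparison 5 of 9 fibroblast and 5 of 15 muscle markers fell, and their part in these changes was not tested. KHSRP alone fell in XL413 (-0.13 ± 0.03) and in OF1 (-0.16 ± 0.03), where 1.54% and 0.567% of all tested genes fell. In gp130 signalling, PIM1 rose (0.31 ± 0.08) and the feedback inhibitor SOCS3 fell (-0.23 ± 0.05) in OF1+XL413. They were 2 of 9 tested, where 10.7% of all tested genes passed, with no call in the single treatments.

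The patterns over the 12 libraries were compared for CCL2, CXCL1 and CXCL8, the members with the smallest p for any difference among the 4 groups, which 5 of 10 members (CCL2, CXCL1, CXCL8, IL1A and LIF) and 12.6% of all tested genes passed. Likeness was the root mean square difference of log2 CPM, each gene centred on its own mean, among 12301 better expressed genes. Nearest to CXCL1 was ICAM1 (0.04), an adhesion molecule for white blood cells, and CTNNBIP1 (0.06), an inhibitor of beta-catenin, was among the 3 nearest. CXCL1 itself varied by 0.16. ICAM1 had log2 changes of 0.26 in OF1+XL413, 0.33 in XL413 and -0.01 in OF1, against 0.30, 0.38 and 0.09 for CXCL1.

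Nearest to CCL2, which varied by 0.33, was ATOH8 (0.12), a transcription factor, and ARHGDIB (0.15) was among the 3 nearest. ATOH8 was higher in XL413 than in OF1 by 0.77 ± 0.13 on the log2 scale, where CCL2 differed by 0.84 ± 0.08. Nearest to CXCL8, which varied by 0.17, were ERRFI1 (0.08), a feedback inhibitor of EGFR, SKAP2 (0.08), an adaptor protein, and ZNF701 (0.08). Against DMSO, ERRFI1 changed by 0.30 in OF1+XL413, 0.28 in XL413 and 0.12 in OF1, where CXCL8 changed by 0.37, 0.40 and 0.32. ERRFI1 did not pass in OF1, SKAP2 did not pass in XL413, and ZNF701 did not pass in any treatment. These genes were picked for their likeness in the same libraries, so it is a description and no test.

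**Figure D4:**
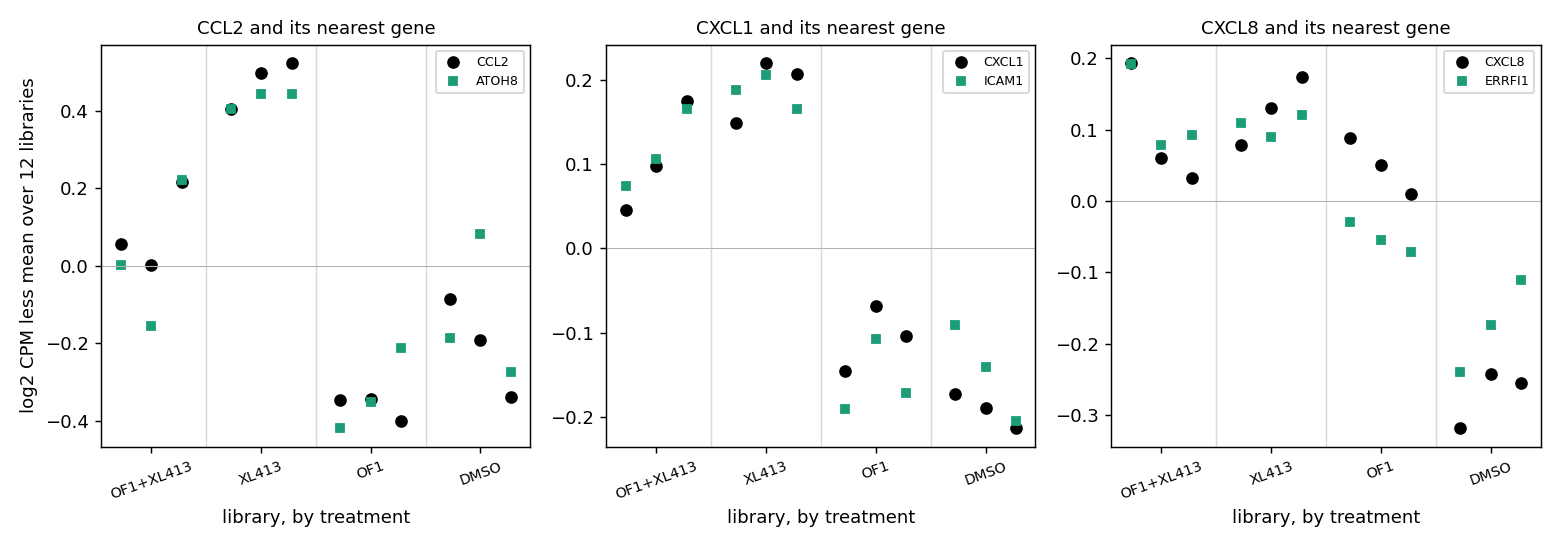
log2 CPM less the mean over 12 libraries (vertical axis) for CCL2, CXCL1 and CXCL8 (black) and the gene nearest to each (green), in every library by treatment. ICAM1 follows CXCL1 within a root mean square difference of 0.04, and ERRFI1 follows CXCL8 less closely, at 0.08.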

How the data were processed

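Values are RSEM expected counts as the authors deposited them, one row per gene symbol, before any scaling. The submitters' processing notes list Bowtie2 2.1.0 and RSEM 1.2.15, with the genome build hg38. Libraries were made from mRNA bound to oligo-dT beads and marked for strand with dUTP, per the labels. Which annotation was used, and whether strand entered the counting, is not given in the sources used here. All values were rounded, 10.6% of them being fractional (tolerance 1e-09).

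edgeR 4.0.16 in R 4.3.3 was run on all 12 libraries with filterByExpr, TMM factors and a quasi-likelihood fit with 1 mean per group (8 residual degrees of freedom, common biological coefficient of variation 0.0487). Benjamini-Hochberg adjustment was over 15353 genes, with 0.05 as the threshold, in 8 comparisons. Standard errors were taken as |log2 change|/√F. The fit was tested on simulated data. Alternatives used DESeq2 1.42.0, limma 3.58.1, other factors and filters, unrounded counts, a replicate block, the mean log2 CPM (prior count 2) of 15 muscle markers as covariate, fewer libraries, and CXCL1 to CXCL3 summed. Named were all 10 members, up to 3 genes per list and comparison of smallest p, and the 3 genes of nearest pattern (average log2 CPM of at least 1) for 3 members, of which some genes are not reported here.

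The members, lists and alternatives were chosen with earlier results of these data known. Replicates of a group differed by more than counting noise (chi-square per degree of freedom 2.32 to 13.6). The ranges were 6.48 to 13.6 in OF1+XL413, 2.88 to 4.31 in XL413, 2.74 to 7.7 in OF1 and 2.32 to 4.47 in DMSO. The main fit shared the spread of a gene over all groups, which may be too small for OF1+XL413.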

Additional observations from a re-analysis of the deposited data

How the results depend on the processing

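All log2 changes that passed kept their sign in every alternative, RLE and upper-quartile factors included. Of 1642 values recomputed for single members 1600 stayed on their side of the threshold, 39 lost a call and 3, all CXCL8 in non-additivity, gained one. With the muscle level as a covariate the members called were 3 for OF1+XL413 against DMSO, 3 for XL413 against DMSO, 0 for OF1+XL413 against XL413 and 0 for OF1+XL413 against OF1. With replicate 1 alone for the combination they were 3 for OF1+XL413 against DMSO, 0 against XL413 and 0 against OF1. Fits to the groups compared only gave 1 for OF1+XL413 against OF1. For non-additivity DESeq2 and the fit without a filter gave 1 each, where edgeR gave 0. Leaving out 1 library gave 3 to 6 for OF1+XL413 against DMSO, 3 to 5 for XL413 against DMSO, 0 to 1 for OF1+XL413 against XL413 and 0 to 1 for non-additivity. The causes were not tested.

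With the replicate block the counts were 6, 5 and 2 for OF1+XL413, XL413 and OF1 against DMSO, 1 and 2 for OF1+XL413 against XL413 and OF1, 2 for XL413 against OF1 and 0 for non-additivity, as without it. Across all genes 2 passed for non-additivity with the block, and 0 without it. Libraries of the same number did not deviate together, with correlations of -0.161 to 0.199 across genes. Across all genes, calls moved too, many but not all of them by over 1.5 times. With the muscle level as a covariate 280 genes passed for OF1+XL413 against DMSO, where 1645 did without it. For XL413 and OF1 against DMSO the counts were 197 (430) and 68 (176). They were 33 (524) for OF1+XL413 against XL413, 9 (845) for OF1+XL413 against OF1 and 808 (1941) for any difference. Fits to the groups compared only gave 878, 1394, 236, 360, 120 and 1158 genes for OF1+XL413, XL413 and OF1 against DMSO, OF1+XL413 against XL413 and OF1, and XL413 against OF1 (990). With replicate 1 alone for the combination the same 6 comparisons gave 857, 848, 414, 155, 53 and 1608. DESeq2 gave 350 for OF1 against DMSO. Without 1 library the ranges were 728 to 2113, 86 to 722, 42 to 388, 168 to 828, 212 to 2227 and 340 to 1434, and for any difference 1046 (without DMSO replicate 2) to 3102 (without OF1+XL413 replicate 1). For non-additivity the fit without a filter gave 132, DESeq2 107 and the fit without OF1+XL413 replicate 1 362 genes. IL6, with 16 to 32 counts per library, was left out by the filter of 1 CPM in 3 libraries.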
